A study of Homo sapiens with 9 samples.

Results

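EIF3G binding was compared between 2 human cell lines, with the 2 EIF3G libraries of 10plex ABC in HEK293 cells set against the 3 EIF3G libraries of 10plex ABC in K562 cells. These were 5 of the 50 libraries of 10plex ABC and 5 of 54 libraries in all; they were chosen by antibody and cell line alone and held 31901 of the 1939976 merged 10plex peaks. ABC is a form of eCLIP in which oligonucleotide barcodes coupled to the antibodies are joined to the RNA that was crosslinked to each target, so that a read's barcode names its RNA binding protein (RBP). HEK293 is a line of human embryonic kidney origin, which the sample labels call HEK293T and the study's methods HEK293XT, and K562 is an erythroleukemia line. Cells of both lines were UV-crosslinked without any other treatment, and each replicate was 1 lysate exposed to the same 10 antibodies, against EIF3G, DDX3, FAM120A, IGF2BP2, LIN28B, PRPF8, PUM2, RBFOX2, SF3B4 and ZC3H11A. The lines served as models of growing cultures only, and nothing in the labels says that replicates came from separate cultures, so that p-values measure the spread between these samples, which may be technical. A cell-line field on both HEK293 samples reads K562, while their titles read HEK293T, and the field of K562 replicate 3 reads K563. The markers of the lines sided with the titles: 18 of 18 K562 markers, among them the globin genes HBG1, HBE1 and HBZ and the erythroid factor GATA1, had a peak of some RBP in every K562 pool and summed to 3876 to 5055 CPM (reads scaled to a library total of 1e6 reads in peaks, averaged over the 10 RBPs), against 3 or 4 of 18 and 11.9 to 17.1 CPM in the HEK293 pools. Of 14 HEK293 markers, 10 or 11 had a peak in the HEK293 pools, where CDH2 and the neurofilament gene NEFL were among them, and 4 to 6 had one in the K562 pools, with sums of 787 to 964 against 250.3 to 289 CPM. Not every marker went this way: MAP1B had 150 and 118 CPM in the HEK293 pools and 266, 210 and 163 CPM in the K562 pools. LIN28A had peaks in K562 pools alone, and DPYSL3 and PAX8 had none. PAX2 and, of the K562 markers, EPOR overlapped between the lines.

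EIF3G is a subunit of eIF3, the large complex that sits on the small ribosomal subunit, recruits it to mRNA and stays through scanning to the start codon. It carries an RNA recognition motif, and crosslinks of eIF3 are known from 5′ UTRs. JUN, a transcription factor of the AP-1 family, and BTG1, an antiproliferative factor, are mRNAs whose translation eIF3 is known to control by binding their 5′ UTRs.

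Fewer EIF3G peaks were called in K562 cells. CLIPper, the peak caller, found 8962 and 13625 peaks in HEK293 replicates 1 and 2 and 2606, 4113 and 4315 in K562 replicates 1 to 3, which merging left at 8647, 13173, 2298, 3755 and 4028. The reads of these peaks summed to 77058 and 139962 in HEK293 cells and to 32490, 46622 and 45722 in K562 cells, and a called peak held a median of 4 and at least 3 reads in every library. EIF3G took 2.38% and 2.36% of the reads of the HEK293 pools and 1.86%, 1.77% and 2.24% of those of the K562 pools. The 3 reads needed for a call were worth 48.4 and 25.8 CPM in HEK293 cells and 123, 83.3 and 83.5 CPM in K562 cells. A gene or site that was missing in K562 cells could therefore have been below what these libraries could show.

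Before any comparison, peaks at sites that resemble the barcode were set apart, as they took the top of the list in both lines. The EIF3G libraries carried peaks at genomic sites with the 5 bases of 1 barcode followed by the first 4 bases of the adapter. The study's oligonucleotide list has this barcode on the row of another antibody; its rows need not pair barcodes with antibodies, and the assignment of the libraries to EIF3G is taken here from the deposited names. The sequences below, read from GRCh38 on the strand of the peak with that 9-base word in capitals, belong to sites enriched in all 5 libraries and show why these peaks were left out.
ARL15 intron, minus strand: aaatttgtCAGATAGATcggaagtcttgca
intron of ENSG00000286330, plus strand: agttgtacCAGATAGATcgaaagaaatgca
KIAA1328 3′ UTR, plus strand: tccttatcCAGATAGATccaaagctcatgt
The peak in ARL15 lay at chr5:54276402-54276425, that in ENSG00000286330 at chr13:74397431-74397455 and that in KIAA1328 at chr18:37223746-37223770. By the rule for naming sites, the ARL15 site and the sites in introns of GATA4 and PCM1 had the highest mean log2 folds over the complement control (CC, the reads of the other 9 barcodes of the pool), at 10.06, 9.39 and 9.27, and the other 2 sequences shown are those next in this order. At the ARL15 site EIF3G had 736 and 73 reads in HEK293 cells and 50, 183 and 309 in K562 cells, against 22, 6, 2, 9 and 10 reads of the CC.

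Enrichment followed the study's limits, P below 0.001 and a fold above 8 over the CC, where the fold compares the reads of EIF3G and of the CC after scaling to their shares of the pool. P was that of the chi-squared statistic at every peak, whereas the paper's methods use Fisher's exact test at low read numbers. Peaks over annotated repeats were left out of this test, in K562 replicate 3 only where another pool had such a peak. By these limits 1930 and 1844 peaks were enriched in HEK293 cells and 581, 1116 and 1231 in K562 cells. Of these, 172, 44, 26, 70 and 80, or 8.91%, 2.39%, 4.48%, 6.27% and 6.50%, resembled the barcode or adapter. In both lines this share rose with the fold: at a log2 fold of 3 to 4 it was 0.588% in HEK293 and 0.545% in K562 cells, and above 8 it was 98.7% (77 of 78 peaks) and 98.6% (69 of 70). The 5′ UTR share was 52.1% and 48.0% at a log2 fold of 3 to 4, 53.1% and 56.9% at 4 to 5, and 1.28% and 1.43% above 8. A list of EIF3G peaks ranked by fold was thus headed by barcode-like sites in either line, whereas about as many peaks just past the limit lay in 5′ UTRs as elsewhere. The shares of like peaks above also count near matches. Exact copies of the 9-base word stood in 1.52% to 7.20% of the enriched peaks of the EIF3G libraries and in 0% to 0.110% over all other libraries. All EIF3G results that follow are without these peaks, whereas peaks of the other RBPs were not screened in this way.

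**Figure D1:**
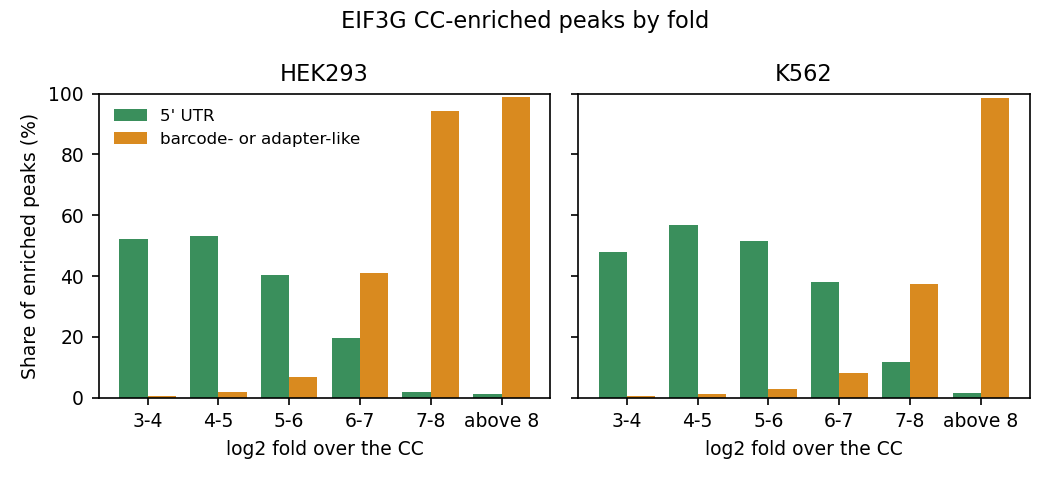
Share of CC-enriched EIF3G peaks (%, y axis) that lay in 5′ UTRs (green) or resembled the barcode or adapter (orange), by log2 fold over the CC (x axis), with the libraries of each line pooled. Above a log2 fold of 8, 98.7% of the peaks in HEK293 and 98.6% in K562 cells were barcode- or adapter-like.

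There remained 1758 and 1800 enriched EIF3G peaks in HEK293 cells, 24.9% and 16.6% of the peaks tested, and 555, 1046 and 1151 in K562 cells, 31.8%, 34.9% and 39.1%. By the authors' own P and fold, K562 replicate 3 had 803 of them in place of 1151. In both lines most of the enriched peaks lay in 5′ UTRs or in coding sequence (CDS). The 5′ UTR share was 54.8% (95% exact binomial interval 52.4 to 57.1) and 48.9% (46.6 to 51.3) in HEK293 cells and 43.8% (39.6 to 48.0), 49.2% (46.2 to 52.3) and 53.0% (50.1 to 55.9) in K562 cells. Reads behind a peak are not fully independent molecules, and these intervals, like the floors of 3 reads, cover counting error only. The lines overlapped, with means of 51.9% ± 4.13 (SD, n = 2) and 48.7% ± 4.63 (SD, n = 3), and their difference of 3.19 percentage points did not pass a two-sided exact permutation test of the line over the 5 libraries (p = 0.5). With 10 possible splits of 2 against 3 libraries, this test cannot give a p below 0.1, so that none of the differences in shares could have reached the threshold of 0.05. The 5′ UTR difference was 0.272 points without HEK293 replicate 1, 0.745 without K562 replicate 1, 6.11 without HEK293 replicate 2 and 5.35 without K562 replicate 3, and it was 18.2 points (74.1% against 55.9%, exact permutation p = 0.1) when each library was held to the 555 enriched peaks of the smallest. For equal numbers, peaks were ranked by the chi-squared statistic, which grows with the reads. K562 replicate 1 thus kept all of its enriched peaks and the other libraries their strongest alone. Under stricter limits the 5′ UTR difference turned to -0.170 points.

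The 5′ UTR share of EIF3G was above that of DDX3, an RNA helicase that also acts in 5′ UTRs, in each of the 5 pools. Barcode- or adapter-like peaks were left out for EIF3G alone, so these shares are not filtered alike. DDX3 had 40.5% and 40.2% in HEK293 cells and 39.8%, 39.1% and 37.5% in K562 cells, and the gap to EIF3G was widest in HEK293 replicate 1 and K562 replicate 3 and narrowest in K562 replicate 1. The 8 other RBPs had at most 4.80%. Among the 10 RBPs, EIF3G had the largest difference of its 5′ UTR share between the lines in the direction of HEK293 cells, followed by DDX3 with 1.54 points; this is given as a description, without a test.

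CDS peaks made up 29.9% and 32.6% of the enriched EIF3G peaks in HEK293 cells and 39.8%, 38.2% and 32.4% in K562 cells, a difference of -5.59 points (exact permutation p = 0.3) in which K562 replicate 3 lay at the HEK293 values. A lower CDS share in HEK293 cells was also seen for 8 of the other RBPs, DDX3 among them with -5.06 points. Introns held 10.1% and 11.9% against 11.2%, 7.46% and 9.56% (exact permutation p = 0.4), and 3′ UTRs held 1.48% and 2.44% against 3.60%, 3.35% and 1.74% (exact permutation p = 0.3). Noncoding exons held 2.90% and 3.28% against 0.901%, 1.34% and 2.69%, which did not overlap (difference 1.45 points, exact permutation p = 0.2). After Benjamini-Hochberg adjustment over the 5 regions, p was 0.5 for each. When enrichment was instead taken over the deposited external background, RNA-seq by the methods, the intron difference was 15.8 points (21.9% against 6.03%, exact permutation p = 0.1); that background had 1 read in 96.6% to 97.2% of the EIF3G peaks in K562 cells and in 8.2% to 11% in HEK293 cells. With the same number of enriched peaks per library, kept by rank as above, the CDS difference was -13.8 points.

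**Figure D2:**
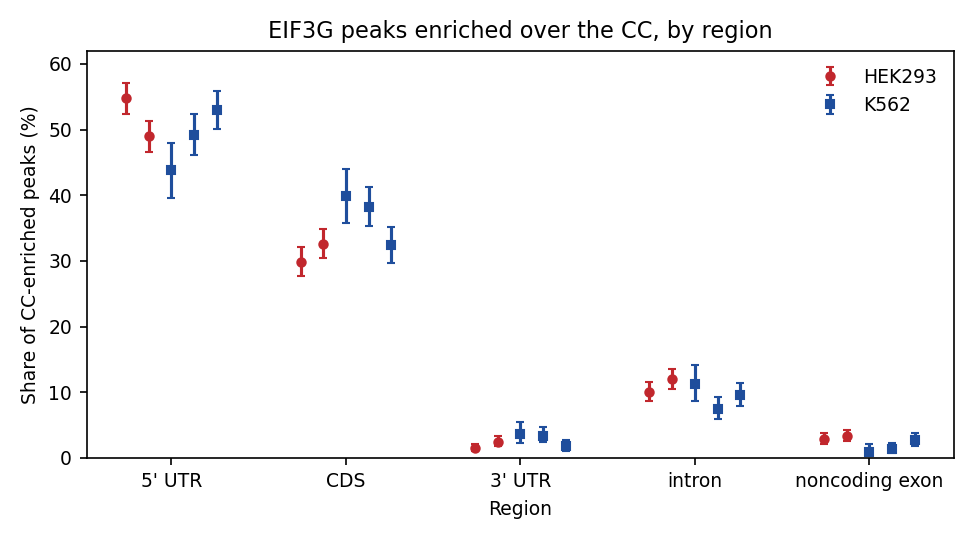
Share of CC-enriched EIF3G peaks by region (%, y axis), 1 point per library with its 95% exact binomial interval, HEK293 as red circles (n = 2) and K562 as blue squares (n = 3). The 5′ UTR shares were 48.9% and 54.8% in HEK293 and 43.8% to 53.0% in K562 cells and overlap.

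Without a limit on enrichment the picture was another. Of all called peaks, CDS held 43.8% and 51.0% in HEK293 cells and 34.0%, 37.3% and 36.3% in K562 cells, and noncoding exons 8.42% and 6.96% against 24.7%, 17.0% and 15.3%, with no overlap in either case, and 5′ UTRs held 29.9% and 24.0% against 23.0%, 26.6% and 35.3%. The noncoding share of the called peaks was thus higher in K562 cells, which that of the enriched peaks was not. In number, noncoding exons held 698 and 902 called peaks in HEK293 cells and 556, 618 and 593 in K562 cells, where fewer peaks were called in all.

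Within 5′ UTRs, the enriched peaks lay farther from the start codon in HEK293 cells. The median distance of the peak centre to the annotated start codon, in nt of spliced mRNA, was -238 (855 peaks) and -239 (787 peaks) in HEK293 cells and -189 (231 peaks), -187 (480 peaks) and -197.5 (548 peaks) in K562 cells. The groups did not overlap, and the difference of -47.3 nt gave the smallest p that the exact permutation test allows for these 5 libraries (p = 0.1). The 5′ UTRs that held these peaks were also longer in HEK293 cells, with medians of 491 and 509 nt against 440, 380.5 and 382.5 nt. As a share of the 5′ UTR length, the median positions were -0.56 and -0.54 in HEK293 cells and -0.49, -0.55 and -0.55 in K562 cells, which overlapped. Called peaks that were not enriched lay nearer to the start codon in every library, at -107 and -119 nt in HEK293 cells and -85, -82.5 and -71 nt in K562 cells. DDX3 moved the same way, from a mean of -117 nt in K562 to -156 nt in HEK293 cells, in 5′ UTRs that were longer by 69.5 nt, and its share of the 5′ UTR length was -0.58 in both HEK293 replicates. The enriched 5′ UTR peaks had a median GC content of 72.5% and 73.3% in HEK293 cells and of 75.7%, 72.1% and 70.7% in K562 cells.

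Counted in 25-nt steps along the mRNA, enriched peaks were most frequent from 50 to 25 nt before the start codon in 4 of the 5 libraries, and as frequent there as in the step before in K562 replicate 2. That step held 5.54% and 4.30% of the placed peaks in HEK293 replicates 1 and 2, 7.61% in K562 replicate 1, 5.23% in replicate 2 and 7.16% in replicate 3. Within 50 nt of the start codon lay 16.2% and 13.1% of the peaks in HEK293 cells and 19.6%, 17.8% and 19.8% in K562 cells, again without overlap. Of the CDS peaks, 38.8% and 33.6% in HEK293 cells and 28.2%, 39.8% and 42.4% in K562 cells were in the first 200 nt of the coding sequence, with overlap between the lines.

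**Figure D3:**
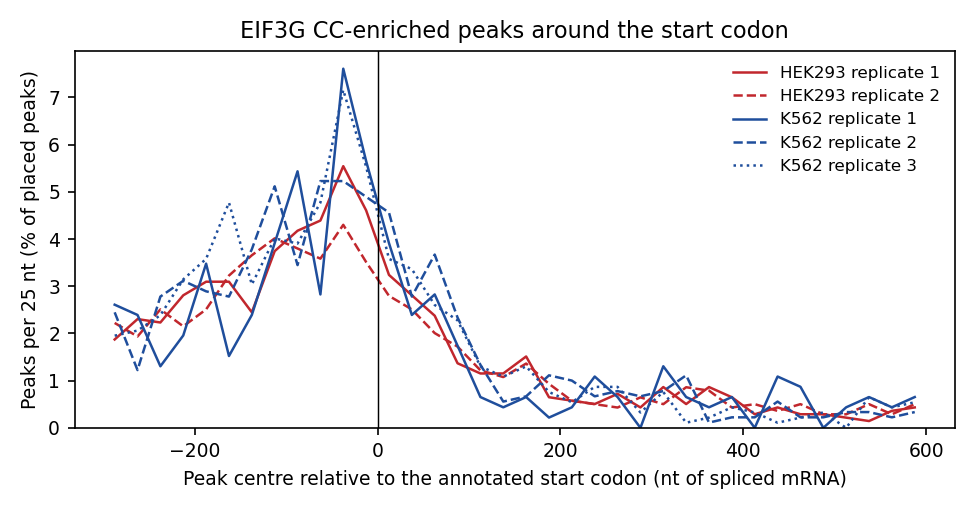
Enriched EIF3G peaks around the annotated start codon (vertical line), as % of the peaks placed on spliced mRNA per 25 nt (y axis) against the distance of the peak centre (x axis, nt), 1 line per library, HEK293 in red and K562 in blue. The step from 50 to 25 nt before the start codon holds 5.54% in HEK293 replicate 1 and 7.61% in K562 replicate 1.

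Enrichment at the same place in every library was rare. Of 5144 sites with an enriched EIF3G peak in some library, where peaks that overlap by at least 1 nt on the same strand are 1 site, 34 were enriched in all 5, in 31 genes, and 30 of them (88.2%) lay in 5′ UTRs and 4 in CDS. JUN was the gene with the most, 3 sites in its 5′ UTR. The sequences of 5 of the 6 strongest sites are given below as 30 bases that overlap the site, not always at its centre (GRCh38, on the strand of the RNA). They show the RNA at sites where EIF3G peaks were enriched in both lines, and no base is marked since none was singled out by the data.
JUN 5′ UTR, 756 nt before the start codon, chr1:58783815-58783844, minus strand: cctggtctccagccgcccccgggaggagag
JUN 5′ UTR, 544 nt before the start codon, chr1:58783599-58783628, minus strand: aagaccagaaggcggcggagagccacgcaa
JUN 5′ UTR, 326 nt before the start codon, chr1:58783386-58783415, minus strand: gagagccgctgctctgggaagtgagttcgc
TPP2 CDS, chr13:102614154-102614183, plus strand: tggctatgacttctatcctaaggcactcaa
BRWD1 CDS, chr21:39274418-39274447, minus strand: acagcacggatttggagatttgagcagtta

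At the JUN site 544 nt before the start codon, EIF3G had 73 and 64 reads in HEK293 cells and 13, 30 and 15 in K562 cells, against 131, 143, 17, 35 and 16 reads of all other 9 RBPs together. This gave log2 folds over the CC of 4.52 and 4.21 in HEK293 cells and of 5.33, 5.57 and 5.35 in K562 cells. The site farthest from the start codon had log2 folds of 4.68 and 4.22 against 4.89, 6.04 and 4.55, and the nearest 4.43 and 4.86 against 4.63, 5.64 and 4.78. JUN was thus enriched more than 16-fold along its 5′ UTR in each library. The TPP2 site, in the mRNA of a tripeptidyl peptidase, rested on 4 and 11 reads in HEK293 cells and on 12, 8 and 8 in K562 cells. The BRWD1 site, in the mRNA of a bromodomain protein, had the highest mean log2 fold of the 34, 6.27 ± 0.91 (SD, n = 5), and within 30 nt of its peak was a stretch with 2 mismatches to the 9-base barcode word, 1 more than the rule for leaving peaks out allows.

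Per gene, 67 of 3127 genes with an enriched peak in some library had one in all 5, whereas 224 were enriched in both HEK293 replicates and no K562 replicate and 35 in all K562 replicates and neither HEK293 replicate. Among the 10 of these 67 with the highest mean log2 fold were BRWD1, RNF167 (a ubiquitin ligase), JUN, TPP2, TLE3 (a transcriptional corepressor), EP300 (a histone acetyltransferase), DHRS3 (a retinal reductase), CDKN1B (the cyclin-dependent kinase inhibitor p27) and CFAP298. The log2 fold of the best peak in TLE3 was 5.06 and 4.51 in HEK293 cells and 5.31, 5.63 and 5.03 in K562 cells. In CDKN1B it was 4.0 and 4.29 against 6.14, 4.50 and 5.22. CFAP298, a protein of motile cilia, was just past the limit of 8-fold in HEK293 cells, with 3.25 and 3.23, and had 3.72, 7.80 and 5.93 in K562 cells. The lines overlapped in BRWD1, TPP2, TLE3 and DHRS3, and in the other 5 genes named each K562 value was above both HEK293 values. The median log2 fold of all enriched peaks was also higher in K562 cells, at 4.02, 3.92 and 3.93 against 3.66 and 3.62, so that this order was not particular to these genes; the folds chose them, and no test is given.

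**Figure D4:**
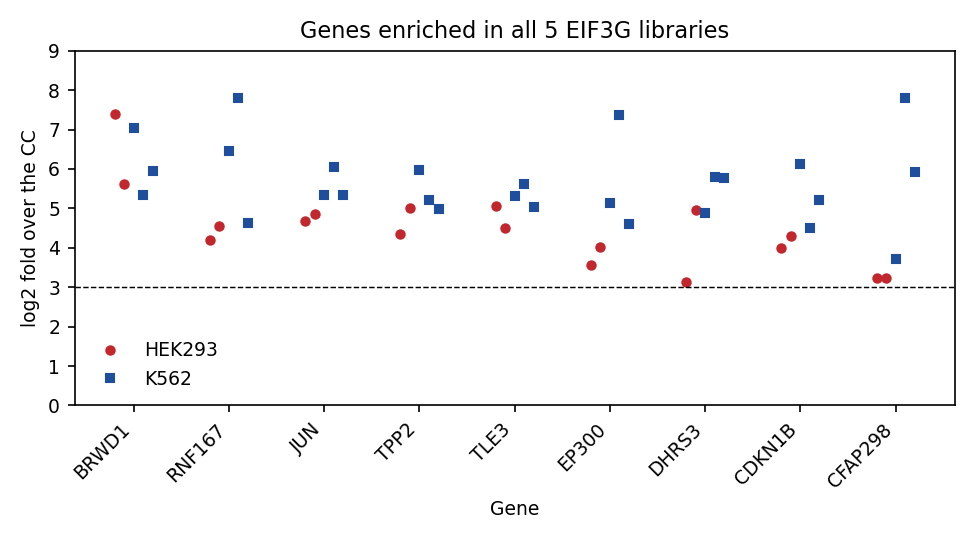
Log2 fold of the best CC-enriched EIF3G peak (y axis) in 9 of the 10 genes (x axis) with the highest mean among those enriched in all 5 libraries, 1 point per library, HEK293 as red circles and K562 as blue squares; the dashed line marks the limit of 8-fold. JUN lies between 4.68 and 6.04.

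Sites enriched throughout 1 line were followed into the other. Here sites were joined over all called peaks. Of 272 sites enriched in both HEK293 replicates, 35 (12.9%) were enriched in every K562 replicate and 92 (33.8%) in some, 8 (2.94%) had an EIF3G peak that was not enriched, 44 (16.2%) had a peak of another RBP but none of EIF3G, and 93 (34.2%) had no peak of any RBP in K562 cells. Of 85 sites enriched in all K562 replicates, 35 (41.2%) were enriched in both HEK293 replicates and 16 (18.8%) in 1, 22 (25.9%) had an EIF3G peak without enrichment, 5 (5.88%) only that of another RBP and 7 (8.24%) none. In the shallower K562 pools, an absent site was thus most often one where nothing was called.

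Called peaks, enriched or not, were found in all 5 libraries in 658 of 6715 genes, of which 432 coded for proteins and 171 were snoRNAs. In both HEK293 replicates and no K562 replicate they were found in 1304 genes, and in all K562 replicates and neither HEK293 replicate in 60. Of the 1304 genes, 861 (66.0%) had peaks of at least 3 of the other 9 RBPs in every K562 replicate, so that their RNA was present there, and 148 had none. However, their median in HEK293 cells was 80.2 CPM, which is below the K562 replicate 1 floor of 123 CPM; 382 were above that floor, 241 of these with 3 other RBPs in every K562 replicate, and 8 of these were above 5 such floors. Of the 60 genes, 33 had peaks of at least 3 other RBPs in both HEK293 replicates, 13 had none, and 22 were above 5 HEK293 floors with 3 other RBPs. With the libraries brought to the same number of merged peaks, 424 genes were found in all 5, 171 in HEK293 cells alone and 117 in K562 cells alone. The numbers of the lines were thus 1304 against 60 as called and 171 against 117 at equal peak numbers. K562 cells had more replicates that had to hold a peak, so these counts are not like for like even at equal peak numbers. The same holds for the enriched genes and sites of each line above.

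The genes of 1 line with the highest EIF3G signal, among those whose RNA other RBPs held in the other line, were as follows. In HEK293 cells CSNK1E, a casein kinase, had 1177 and 956 CPM of EIF3G and no EIF3G peak in K562 cells, while the mean of the other 9 RBPs was 861 and 689 CPM in HEK293 cells and 74.9, 52.4 and 40.8 CPM in K562 cells. PRPF8, the core spliceosome protein, had 645 and 818 CPM of EIF3G, and its other-RBP mean was 776 and 686 against 321, 369 and 288 CPM. SMC1A, a cohesin subunit, had 693 and 818 CPM with an other-RBP mean of 899 and 782 against 281, 249 and 238 CPM. In all 3 genes the other RBPs were also lower in K562 cells. LUC7L3, MTA1, SNORA7A and ZIC2 had 516 to 827 CPM of EIF3G in the HEK293 replicates, with lower means of the other RBPs in K562 cells as well, whereas UBA2 had 48.4 CPM in HEK293 replicate 1 and 1654 CPM in replicate 2, and its means of the other RBPs, 296 and 121 CPM against 144, 164 and 165 CPM, overlapped between the lines.

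In K562 cells PRAME, a tumour antigen that is also 1 of the K562 markers, had 1070.1, 1666 and 1057 CPM of EIF3G, and its other-RBP mean was 1213, 1453 and 1283 CPM against 12.1 and 10.1 CPM in HEK293 cells. TXNIP, an inhibitor of thioredoxin, had 617, 305 and 1447 CPM, with 475, 428 and 766 against 19.8 and 16.8 CPM for the others. HMGCS1, an enzyme of sterol synthesis, had 535, 916 and 807 CPM, with 958, 1502 and 1135 against 41.3 and 47.7 CPM. In these 3 genes the other 9 RBPs were lower in HEK293 cells too. SNORD28, EGFL7, TMSB4X and TMC6 had 278 to 944 CPM of EIF3G in the K562 replicates. RNU5B-1, a spliceosomal snRNA, had 3128, 1555 and 473 CPM of EIF3G, with 309, 314 and 88.5 CPM of the others against 64.3 and 119 CPM. The lysates were of whole cell populations, in which fewer cells with an RNA and less of it per cell cannot be told apart, and RNA level was not measured apart from the peaks of the other RBPs.

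The 658 genes with an EIF3G peak in all 5 libraries were then tested for a difference between the lines with the other 9 RBPs as control. The value tested was the log2 of EIF3G CPM minus the log2 of the mean CPM of the other 9 RBPs of the same pool, centred in each library on the median gene, and the test was limma with Benjamini-Hochberg adjustment. No gene passed an adjusted p of 0.05 in either direction (0.0% of 658 genes); the lowest adjusted p was 0.094, and 66 genes had an unadjusted p below 0.05. The differences ran from -1.09 to 1.20 between the 5th and the 95th percentile, with a median SE of 0.45, all on the log2 scale. Simulated data of the same size had 200 genes changed at once and noise of a preset size, not that of the libraries. In these data, 47 of 50 genes made 8-fold lower and all 50 made 8-fold higher were called. At 4-fold, 39 of 50 made lower and 49 of 50 made higher were called. The adjustment is stricter where fewer genes differ, so these numbers need not hold for the libraries. In the libraries themselves, a gene that lost its called peak in any of the 5 was left out. How often changes of that size would be called under this condition was not tested. The values of the lines did not overlap for 92 genes higher in HEK293 cells and 87 higher in K562 cells, 14.0% and 13.2% of those tested. With only 10 possible splits of 2 against 3 libraries, such a separation also arises often without a difference between the lines.

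Without the control, the EIF3G CPM alone, centred in the same way, differed for 173 genes, 80 higher in HEK293 cells (12.2%) and 93 higher in K562 cells (14.1%; limma, adjusted p below 0.05). For 169 of the 173 (97.7%) the mean of the other 9 RBPs differed in the same direction. The 173 genes were chosen by their EIF3G difference, and this share was not counted over all 658 genes. Their median absolute log2 difference was 1.79 by EIF3G alone and 0.47 relative to the others, beside 0.88 and 0.40 over all 658 genes. Across the 658 genes, the EIF3G difference followed that of the other 9 RBPs with a Pearson r of 0.82 and a Spearman rho of 0.84, and across the 432 coding genes with 0.77 and 0.74. These are descriptions across genes, which are not independent replicates, and both sides come from the same lysates and pools. The log2 CPM of EIF3G correlated with 0.86 between the HEK293 replicates, 0.77 to 0.84 between K562 replicates and 0.49 to 0.61 between lines.

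**Figure D5:**
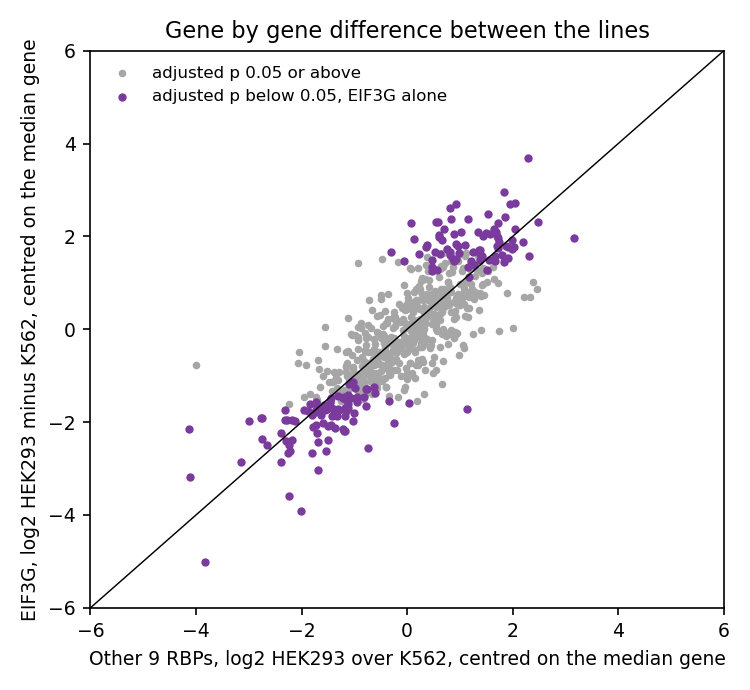
Difference between HEK293 and K562 cells in each of 658 genes, for EIF3G (y axis, log2) against the mean of the other 9 RBPs (x axis, log2), both centred on the median gene; the line marks equal differences and purple points the 173 genes called by EIF3G alone (limma, adjusted p below 0.05). The points follow the line, with a Pearson r of 0.82 across genes.

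The genes that moved most by EIF3G alone show this; they were chosen after their values were seen. CLIC1, an intracellular chloride channel protein, had 64.5 and 155 CPM in HEK293 cells and 4857, 6690 and 4035 CPM in K562 cells, a log2 difference of -5.01 (SE 0.48, limma adjusted p = 1.64e-07). The mean of the other RBPs was 40.9 and 25.8 against 642, 739 and 736 CPM, and the relative difference was -1.13 (SE 0.62, limma adjusted p = 0.55). DDX17, an RNA helicase, had 2369.9 and 1266 against 165, 83.3 and 417 CPM, 3.69 by EIF3G alone (SE 0.58, limma adjusted p = 3.01e-04) and 1.45 relative to the others (SE 0.74, limma adjusted p = 0.52). In both genes the lines were far apart in EIF3G and in the other RBPs.

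By gene type, 75 of the 432 coding genes were higher in HEK293 and 34 higher in K562 cells by EIF3G alone, whereas 1 of the 171 snoRNAs was higher in HEK293 and 51 (29.8%) were higher in K562 cells. The median log2 difference of the snoRNAs was -1.01 for EIF3G and -0.82 for the other 9 RBPs, and that of the coding genes 0.37 and 0.37. SNORD48, a C/D box snoRNA also chosen after its values were seen, had 129 and 302 CPM of EIF3G in HEK293 cells and 11936, 2554 and 1530.5 CPM in K562 cells. Relative to the others, the medians of both types were near 0, at -0.12 and 0.03. Near-identical snoRNA copies can share reads, so that single members are uncertain.

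No difference in JUN between the lines passed this test. It had 4449.6 and 2636 CPM of EIF3G in HEK293 cells and 2387, 5607 and 1781 CPM in K562 cells, against a mean of the other 9 RBPs of 291, 325, 207, 336 and 69.1 CPM. Its values relative to the others and to the median gene were 3.18 and 2.48 in HEK293 cells and 2.81, 3.31 and 4.09 in K562 cells on the log2 scale, which overlapped, and the difference was -0.58 (SE 0.58, limma adjusted p = 0.76). By EIF3G alone it had the opposite sign, 0.80 (limma adjusted p = 0.20). BTG1 had EIF3G peaks in 4 of the 5 libraries, with 274 and 60.3 CPM in HEK293 cells and 247 and 139 CPM in K562 replicates 1 and 3, so that it was not tested; 3 of these libraries had an enriched peak in it. EIF3G's own mRNA had peaks of EIF3G in HEK293 cells alone, of 96.7 and 121 CPM and none enriched, and of 7 or 8 of the other RBPs in every pool. Its HEK293 level was near the floor of the K562 libraries. GATA4, in whose intron lay 1 of the barcode-like sites, had apart from that site an enriched EIF3G peak of 3 reads in HEK293 replicate 2 and none elsewhere.

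The 2 genes with the lowest p, neither of which passed, were chosen after their values were seen. Both were called under some other settings: their limma adjusted p was 0.043 with 2 reads added before log2 and 0.017 from reads at sites called in all 5 libraries, and that of MT-ATP8 was 8.0e-04 among genes with at least 10 reads in every library. ZNF767P, annotated as a lncRNA, had 64.5 and 94.8 CPM of EIF3G in HEK293 cells and 412, 416 and 362 CPM in K562 cells, while the others had 63.9 and 74.7 against 55.5, 49.7 and 36.2 CPM (relative difference -2.79, SE 0.43, limma adjusted p = 0.094). MT-ATP8, which codes for a subunit of the mitochondrial ATP synthase, had 161 and 94.8 CPM against 905, 1027 and 612 CPM, with 37.9 and 24.4 against 950, 826 and 681 CPM for the others (2.03, SE 0.35, limma adjusted p = 0.10). EIF3G was thus lower in HEK293 cells in both, and relative to the others it was lower in ZNF767P and higher in MT-ATP8. MT-ATP8 overlaps another mitochondrial gene on the same strand, and its reads could not be assigned to it with certainty.

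No member of the lists of translation genes was called relative to the other RBPs. Of 88 cytoplasmic ribosomal proteins, 72 had an EIF3G peak somewhere, 31 were tested, none was called relative to the other RBPs, and their median was -0.06 beside -0.04 over all 658 genes. By EIF3G alone 8 were higher in HEK293 and none in K562 cells, with a median of 0.47 beside -0.14 over all genes and 0.37 over the 432 coding genes, of which 17.4% were higher in HEK293 and 7.87% in K562 cells. RPS19, of the small subunit, had 822 and 629 CPM in HEK293 cells and 165, 472 and 83.5 CPM in K562 cells. No ribosomal protein gene was enriched over the CC in all 5 libraries, and 19 were so in some. Of 25 other translation factors 9 were tested with a median of 0.17, none was called relative to the others, and 3 of the 9 were higher in HEK293 cells by EIF3G alone, beside 17.4% of the coding genes. EIF4G1, the scaffold of the cap-binding complex to which eIF3 binds, had 935 and 715 against 123, 194 and 501 CPM (relative difference 2.29, SE 0.71, limma adjusted p = 0.37). EIF5, a partner of the scanning ribosome, went the other way with 177 and 215 against 370.4, 638 and 612 CPM (-1.36, SE 0.43, limma adjusted p = 0.37). All 13 eIF3 subunit genes had an EIF3G peak in some library, none in all 5, and 2 in both HEK293 replicates alone.

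None of the members tested in the other lists was called relative to the other RBPs either. Of 14 mRNAs controlled by upstream open reading frames, 12 had a peak in some library, and OAZ1, the antizyme of ornithine decarboxylase, was the 1 tested (0.71, SE 0.38, limma adjusted p = 0.53). Of 68 replication-dependent histone genes 6 were tested with a median of 0.01, of 22 chaperones 7 with 0.31, and of 11 actin and tubulin genes 5 with 0.25. Among the 20 genes of growth and cell cycle, 6 were tested with a median of -0.14, and 2 were enriched over the CC in all 5 libraries. CDKN1B, 1 of these, had 274 and 215 CPM of EIF3G in HEK293 cells and 165, 305 and 612 CPM in K562 cells. CDK6, a kinase of the G1 phase, had 80.6 and 68.9 against 370.4, 972 and 863 CPM and was enriched over the CC in the K562 libraries alone, with a relative difference of -1.75 (SE 0.41, limma adjusted p = 0.27). MCM7, of the replicative helicase, had 725 and 499.7 against 123, 111 and 306 CPM (1.81, SE 0.60, limma adjusted p = 0.40). EIF3G thus differed in opposite directions within this list, without a call once the other RBPs were taken into account.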

How the data were processed

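Per the labels and the paper's methods, reads were trimmed (cutadapt 2.8), freed of repetitive elements, aligned to GRCh38 (STAR 2.7.6), deduplicated and peak-called per library with CLIPper. The authors deposited the CLIPper p-value and a display score per peak, and for merged peaks a −log10 P and a log2 fold over an external background (RNA-seq by the methods; which library is not given in the sources used here). They also deposited a chi-squared statistic (a score) over the CC for all pools except K562 replicate 3, for which they deposited a −log10 P and log2 fold. Read numbers were recovered from these values, as in the peak names of K562 replicates 1 and 3 for 97.5% of EIF3G peaks. A peak of HEK293 cells whose deposited −log10 P was 0 took the smallest possible number. Reads of the CC were solved from the chi-squared statistic, and came out whole for 94.7% and 94.2% of the HEK293 and 97.8% and 97.4% of the K562 peaks of replicates 1 and 2. K562 replicate 3 was tested with the same statistic. Its peaks were left out as repeats where at least 50% of a peak overlapped one that the authors had removed from another pool. Repeat peaks called in K562 replicate 3 alone thus stayed in.

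Sites were barcode- or adapter-like with at most 1 mismatch, within 30 nt, to the first 10 adapter bases or to a barcode with 4 adapter bases. This rule was set after seeing the data. Touching peaks of a gene were counted by the highest read number, and 0.5 reads were added before log2. Regions came from GENCODE release 44 (the authors used 35). Errors are SDs over libraries. limma 3.58.1 in R 4.3.3 used eBayes with a trend and was tested on simulated data; at no change it called 5 of 458 genes. With 2 and 3 libraries, and a median of 4 reads per peak, precision is limited by both number and depth.

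The members and gene lists were chosen with earlier results of these data known. Named were up to 8 genes per line by mean CPM among those of 1 line with 3 other RBPs in the other, the 10 genes and 6 sites enriched in all 5 libraries with the highest mean log2 fold, up to 3 barcode-like sites, EIF3G, JUN, BTG1 and GATA4, and list members by adjusted p. Alternatives were stricter limits (P below 1e-05, fold above 16), the external background, no limit, equal peak numbers, other region, overlap, read-number, centring and trend settings, a replicate block and leaving out each replicate. The singleplex libraries were not used. 1 gene that the naming rule includes is not reported here.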

Additional observations from a re-analysis of the deposited data

Results flagged for a closer look

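The 5 bases of the barcode and 4 adapter bases stood in the genome within 30 nt of 7.20% and 1.52% of the enriched EIF3G peaks in HEK293 replicates 1 and 2 and of 2.41%, 5.02% and 4.87% in K562 replicates 1, 2 and 3. These peaks are outside the comparisons of the lines. They stood out against the 45 libraries of the other RBPs, where the same word was found in 0% to 0.110% (median 0.0253%) of the enriched peaks. Those libraries carry other barcodes, and words from their own barcodes were not counted in them. Whether they hold such peaks at their own words is thus not known. Over the 5 EIF3G libraries, 297 of 6702 enriched peaks held the 9-base word, and the words made from the other 9 barcodes stood in at most 4. How these reads arose was not tested.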

How the results depend on the processing

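The median distance to the start codon kept its direction under the 11 settings it was run under, from -42.2 to -72.3 nt; it was not run with all merged peaks, the region at the peak centre or the same number of enriched peaks. The 5′ UTR difference turned to -0.170 points under the stricter limits and to -1.37 with all merged peaks. With all merged peaks, CDS turned to 11.5 and noncoding exons to -11.3 points; with the external background, which had 1 read in 96.6% to 97.2% of the K562 but 8.2% to 11% of the HEK293 peaks, noncoding exons turned to -14.9 and 3′ UTRs to 0.588; with the same number of enriched peaks introns turned to -3.54. The cause was not tested. The JUN difference turned to 0.80 by EIF3G reads alone.

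The genes in all 5 libraries, in HEK293 alone and in K562 alone numbered 67, 224 and 35 by enriched peaks, 424, 171 and 117 with the same number of merged peaks, and 366 in all 5 and 127 in K562 alone by peaks enriched over the external background. The sites numbered 587, 1697 and 60, and 34, 145 and 31 by enriched peaks, 367, 899 and 177 over the external background, and 377 and 126 in 1 line alone with the same number of merged peaks. Leaving out 1 replicate moved genes of HEK293 alone to between 1385 and 3009 (2005 without HEK293 replicate 2 and the highest without replicate 1), genes of K562 alone to between 75 and 114, sites of HEK293 alone to between 1780.0 and 10208 and sites of K562 alone to between 93 and 176; in HEK293 alone the highest were without HEK293 replicate 1 and in K562 alone without K562 replicate 1.

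Relative to the other RBPs, 80 genes higher in HEK293 and 93 in K562 cells were called without that control, 1 and 1 with 2 reads added, 1 and 1 from reads at sites in all 5 libraries alone, 1 higher in HEK293 with at least 10 reads or with coding genes alone, and 1 higher in K562 without centring. With the replicate block, 4 and 1 were called, and leaving out each replicate called none. MT-ATP8 and ZNF767P were the genes called with 2 reads added, and with the block MAN1A1, PRRC2C, ANTXR2 and MCM7 were higher in HEK293 and ZNF767P in K562 cells. Whether the replicate numbers pair the samples is not known. Deviations from the line means correlated by -0.06 and 0.04 between samples of the same number. By the original numbers in the titles, 1 pair shares a number, HEK293 replicate 1 and K562 replicate 3, with 0.09. With 2 HEK293 libraries the deviations of 1 mirror those of the other, so that these correlations cannot decide on pairing. The restriction to sites in all 5 libraries, to coding genes and to the 10 adapter bases alone, and both alternatives for K562 replicate 3, were chosen after seeing the data. The 3 reads needed for a call were worth 83.3 to 123 CPM in K562 and 25.8 to 48.4 CPM in HEK293 cells.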
